A study of Homo sapiens with 4 samples.

Results

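The JAK-STAT signalling and feedback genes were 9 of the 58735 genes in the RNA-seq table of cells labelled NB4: the kinase JAK2, the transcription factors STAT3, STAT5A and STAT5B, the feedback inhibitors SOCS1, SOCS2, SOCS3 and CISH, and the target kinase PIM1. They were chosen by name, by matching each gene identifier to its symbol in GENCODE release 44, and all 9 passed the filter of a mean of at least 0.5 FPKM (fragments per kilobase of exon, scaled to the reads of each library) over the libraries. The control group held 2 libraries of cells labelled as the GNE-987 control, and the treated group held 2 libraries of the same line exposed for 1 day to GNE-987 at 25 nM. This small molecule sends its target proteins to degradation. The labels do not say whether the control cells received a vehicle. No genetic change was made in either group, all 4 libraries came from 1 cell line, and the labels do not say whether the replicates were separate cultures, so P values measure only the spread between these libraries.

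JAK kinases sit on the inner ends of cytokine receptors and, once a cytokine binds, phosphorylate STAT proteins, which pair, enter the nucleus and switch on target genes. Among those targets are CISH and the SOCS genes, whose products bind receptors or JAKs and end the signal, so that their transcripts are widely read as a record of recent STAT activity. In blood cells JAK2 and STAT5 carry the signals of erythropoietin and interleukin-3, and STAT3 those of the interleukin-6 family.

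GNE-987-treated libraries held less STAT5A, STAT5B, JAK2 and SOCS2 and more STAT3, SOCS1, SOCS3 and CISH than control libraries. STAT5A fell 6.80-fold while STAT3, its neighbour on chromosome 17, rose 3.61-fold. SOCS3 rose 7.57-fold, SOCS1 6.28-fold and CISH 4.30-fold, and SOCS2 fell 2.29-fold. Of the 9 genes, 4 were called higher, 4 were called lower and PIM1 was not called. A call required an unadjusted P value under 0.05 in limma and a fold change over 2 or under 0.5. Calls were common over the whole table: 58.5% of the 16668 tested genes were called, 33.6% higher and 24.9% lower, and among protein-coding genes 24.0% were higher and 31.7% lower. The 2 groups did not overlap for any of the 9 genes, which also held for 89.1% of all tested genes. Beside these shares, 4 genes in each direction are given as a description of the 9 genes. The median log2 fold change was -0.59 over the 9 genes and 0.17 over all tested genes. In bulk RNA, fewer cells of a type and less RNA per cell cannot be told apart.

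**Figure D1:**
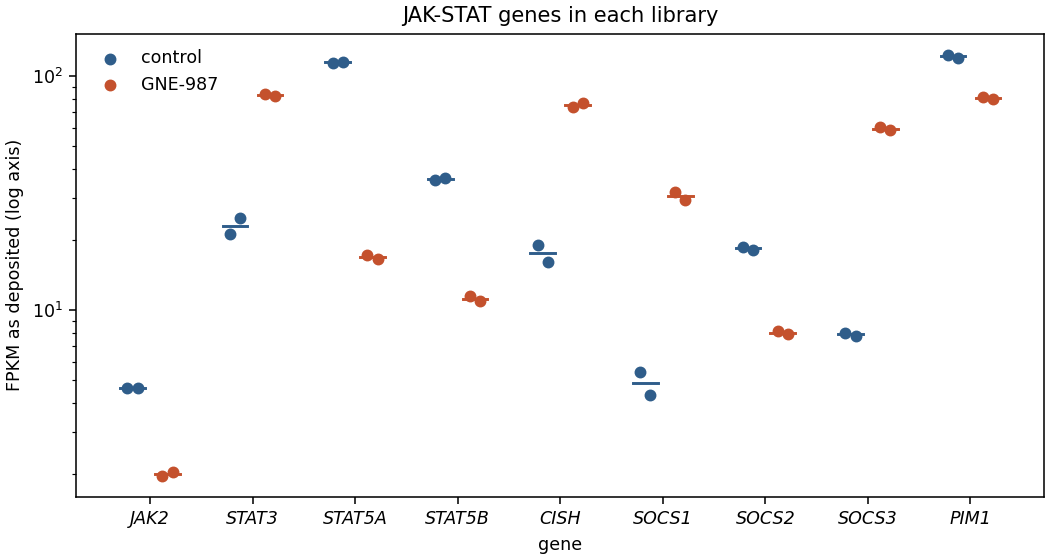
FPKM of each JAK-STAT gene as deposited (log axis), with 2 control libraries (blue) and 2 GNE-987 libraries (red) as points and the group mean as a bar. The points of the 2 groups do not overlap for any of the 9 genes, as for 89.1% of all tested genes.

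The markers of the cell label and the depth bear on every value. The control libraries held MPO, an enzyme of promyelocytes, at 0.0246 and 0 FPKM and GATA1, the erythroid transcription factor, at 123.8 and 121.8 FPKM. The 7 granulocytic markers summed to 3.33 and 3.85 FPKM in control and 27.5 and 26.3 FPKM in GNE-987 libraries, with ELANE and CTSG at 0 in both controls. Other markers of this list were present in the controls: AZU1 at 2.07 and 2.10, CD33 at 0.836 and 0.916 and PRTN3 at 0.341 and 0.710 FPKM. With GNE-987, MPO, AZU1 and CEBPE were called higher and CD33 lower. The 8 erythroid markers summed to 315.6 and 316.5 FPKM in control and 381.8 and 332.3 FPKM in treated libraries, with 4 higher and 3 lower, none of them at 0. The 4 lymphoid markers summed to between 16.2 and 17.2 FPKM in control and between 43.5 and 44.2 FPKM in treated libraries, with CD3E at 0 in both controls. Only CD79A of this list was called, from 0.0867 and 0 FPKM in control to 23.4 and 21.4 FPKM in treated libraries. The 4 megakaryocytic markers summed to 0.485 and 0.472 FPKM in control and 3.84 and 5.22 FPKM in treated libraries, with ITGA2B called higher and PF4 at 0 in all libraries. The controls of this line labelled NB4, a promyelocytic line, therefore held MPO, ELANE and CTSG at or near 0 and other granulocytic markers at low levels. The marker sums moved with treatment, and their part in the changes of the JAK-STAT genes was not tested. Whole reads could be recovered from the FPKM values, and each of the 9 genes had between 101 and 15072 of them in a library, with totals of 12307815 to 19347332. Of the 9 genes, only SOCS3 gave whole reads at its annotated exon length. Read numbers of the others were inferred at a fitted length, such as 6170 bases for JAK2 in place of 7908.

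JAK2 (ENSG00000096968, chr9:4984390-5129948, plus strand, hg38) had the lowest mean FPKM of the 9 genes in both groups. Its control range overlapped that of SOCS1. JAK2 measured 4.65 and 4.66 FPKM in control and 1.96 and 2.04 FPKM in GNE-987 libraries, resting on 661, 636, 101 and 111 reads. Both treated libraries lay below both controls, which differed from each other by far less than the groups did. The log2 fold change was -1.18 (SE 0.0884, n = 2 per group, limma adjusted P = 0.000841). The call was lost in a test against a 2-fold change and with a pseudocount of 1 (log2 fold change -0.92). The JAK2 span also holds several pseudogenes and the opposite-strand gene INSL6, each under 1 FPKM in every library. The other kinases of the family were not called: JAK1 went from 10.2 and 10.7 to 13.3 and 14.5 FPKM, TYK2 from 26.3 and 26.4 to 40.9 and 45.0 FPKM, and JAK3 stayed under 0.1 FPKM and was not tested. JAK1 and TYK2 were called lower with GAPDH scaling, and differences between the kinases were not tested.

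STAT5A and STAT5B encode near-identical transcription factors that act downstream of JAK2. STAT5A (ENSG00000126561, chr17:42287547-42311943, plus strand) measured 113.8 and 115.3 FPKM in control and 17.2 and 16.6 FPKM in treated libraries. Its log2 fold change was -2.76 (SE 0.0426, limma adjusted P = 9.61e-05), which placed it at percentile 2.7 of all tested genes, and its level moved from percentile 98.6 of tested genes in control to 84.8. STAT5A was the second most abundant of the 9 genes in control and the sixth with GNE-987. STAT5B (ENSG00000173757, chr17:42199176-42288633, minus strand) measured 35.8 and 36.7 FPKM in control and 11.4 and 11.0 FPKM with GNE-987, a log2 fold change of -1.69 (SE 0.0510, limma adjusted P = 0.000178). Both genes fell with no overlap between groups, and STAT5A fell further. STAT5A made up 76.1% and 75.9% of the summed STAT5A and STAT5B FPKM in control and 60.0% and 60.2% in treated libraries. The ratio of STAT5A to STAT5B within a library, which does not depend on scaling between libraries, went from 3.18 and 3.14 to 1.501 and 1.513. These paralogs can share reads, and their annotated spans overlap head to head by 1087 bases on opposite strands. The counting was not stated to use strand, so the split between them is uncertain.

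STAT3 (ENSG00000168610, chr17:42313324-42388540, minus strand), the factor of interleukin-6 signals, lies 1380 bases past the 3′ end of STAT5A and moved the other way. Its level was 21.1 and 24.8 FPKM in control and 83.5 and 81.8 FPKM in treated libraries, with 4273, 4824, 6150 and 6359 reads. Even the lower treated library stood well above the higher control library. The log2 fold change was 1.85 (SE 0.0927, limma adjusted P = 0.000365). STAT3 became the most abundant of the 9 genes in GNE-987 libraries, after ranking below PIM1, STAT5A and STAT5B in control. The ratio of STAT5A to STAT3 within a library fell from 5.402 and 4.658 to 0.205 and 0.203, so the gene in excess changed from STAT5A to STAT3. GNE-987 and control libraries did not overlap in this ratio, but with 2 against 2 libraries the two-sided exact permutation test cannot go below p = 0.333.

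Genes around the STAT cluster did not move as a block. CAVIN1, 13908 bases before the 5′ end of STAT3, measured 36.6 and 41.9 FPKM in control and 39.7 and 37.3 FPKM in treated libraries (limma adjusted P = 0.807). GHDC, 4662 bases past the 3′ end of STAT5B, measured 11.1 and 10.7 FPKM in control and 8.54 and 10.3 FPKM in treated libraries (limma adjusted P = 0.147). Neither passed the test, and the groups overlapped for CAVIN1. Inside STAT5B, 3 unnamed genes fell with it. ENSG00000278829 went from 7.96 and 9.88 to 0.438 and 0.277 FPKM, ENSG00000236194 from 7.23 and 7.16 to 0.880 and 0.757 FPKM, and ENSG00000267758 from 7.88 and 7.84 to 0.482 and 0 FPKM. ENSG00000278829 and ENSG00000236194 share the strand of STAT5B, and ENSG00000267758 lies on the other strand. In treated libraries ENSG00000278829 had 3 and 2 reads, ENSG00000236194 11 and 10, and ENSG00000267758 2 and 0. Whether reads counted in these genes came from STAT5B transcripts was not tested.

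**Figure D2:**
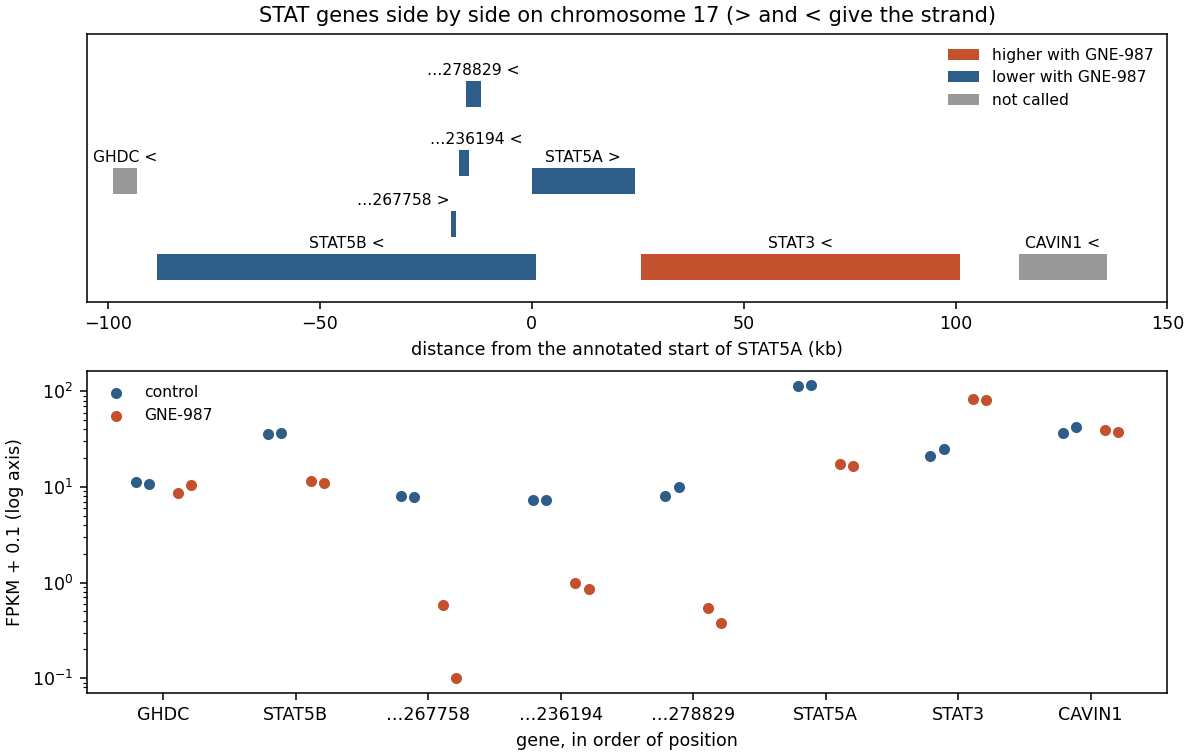
Upper panel, annotated genes of the STAT cluster against distance in kb from the start of STAT5A, coloured by call, with > and < for strand and the last 6 digits for unnamed genes. Lower panel, FPKM + 0.1 of each gene in 2 control (blue) and 2 GNE-987 (red) libraries on a log axis: STAT5A and STAT5B are lower with GNE-987, STAT3 between them and CAVIN1 is higher, and the outer genes GHDC and CAVIN1 were not called.

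The remaining STAT genes gave 1 call among 3 tested. STAT6, which answers interleukin-4, went from 10.8 in both controls to 3.08 and 2.75 FPKM (log2 fold change -1.86, SE 0.0876, limma adjusted P = 0.000326). STAT2 measured 5.89 and 6.50 FPKM in control and 10.6 and 10.8 FPKM in treated libraries, under the 2-fold limit. STAT4 was under 0.1 FPKM and was not tested.

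CISH and the SOCS genes encode proteins with an SH2 domain that binds phosphorylated receptors or kinases and a SOCS box that recruits a ubiquitin ligase. CISH and SOCS2 act mostly on receptors that use STAT5, SOCS3 on receptors that use STAT3, and SOCS1 on JAK kinases and interferon receptors. STAT dimers bind the letters TTCNNNGAA, where N is any base. The CISH promoter is shown first because it is a classic STAT5 target and held more of these matches than the windows searched for the other genes. RefSeq windows of 300 bases (GRCh38.p14, 250 bases before the start site and 50 after) were at hand for 8 of the 9 genes, 14 windows in all, with none for SOCS2. The window of CISH (chr3:50611725-50612024, minus strand) is written 5′ to 3′ with TTCNNNGAA matches in capitals.
CISH: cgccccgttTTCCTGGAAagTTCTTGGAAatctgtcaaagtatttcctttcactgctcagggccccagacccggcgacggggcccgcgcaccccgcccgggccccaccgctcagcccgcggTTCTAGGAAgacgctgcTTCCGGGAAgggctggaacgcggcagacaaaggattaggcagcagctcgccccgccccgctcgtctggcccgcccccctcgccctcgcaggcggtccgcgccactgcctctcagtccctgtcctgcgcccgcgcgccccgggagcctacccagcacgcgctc
The CISH window held 4 matches, beginning 241, 230, 129 and 112 bases before the start site. Of 35116 windows in the table, 7.66% held at least 1 match and 0.0199% held 4 or more. TTCNNNGAA reads the same on both strands, and no window of another of these genes held it. The windows of SOCS3 and STAT5B do not cover the 5′ ends of the gene spans given here. Those stretches, and the SOCS2 promoter, were therefore not searched. The same letters with 4 bases between TTC and GAA matched 1 of 3 STAT5A windows, beginning at base -229 from its start site, and 6.44% of all windows. Motifs were chosen after the sequences had been seen, and a match is a description of letters, not of binding.

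CISH (ENSG00000114737, chr3:50606489-50611774, minus strand) rose while STAT5A and STAT5B fell. Its level was 19.0 and 16.1 FPKM in control and 73.9 and 76.9 FPKM in GNE-987 libraries, from 2233, 1821, 3157 and 3469 reads. The raw number of reads was also higher in the treated libraries, which hold fewer reads in all. The log2 fold change was 2.10 (SE 0.0959, limma adjusted P = 0.000308). Within a library, the ratio of CISH to STAT5A rose from 0.167 and 0.140 to 4.31 and 4.64, a 29.0-fold change. The first 255 bases of CISH overlap MAPKAPK3 on the opposite strand, which fell from 15.6 and 16.5 to 7.87 and 6.36 FPKM (limma adjusted P = 0.00209). ENSG00000280382, an unnamed gene on the same strand 5340 bases past the 3′ end of CISH, was listed at 0 in both controls and at 16.9 and 18.1 FPKM in treated libraries.

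SOCS1 (ENSG00000185338, chr16:11254417-11256204, minus strand) was close to JAK2 in control, where their ranges overlapped, and far above it with GNE-987. It measured 5.44 and 4.33 FPKM in control and 32.0 and 29.4 FPKM in treated libraries, from 225, 172, 480 and 466 reads. Its controls differed by far less than the groups did. The log2 fold change was 2.63 (SE 0.135, limma adjusted P = 0.000379). SOCS1 lies wholly within RMI2 on the opposite strand, which measured 6.97 and 5.38 FPKM in control and 5.11 and 5.93 FPKM in treated libraries, with overlapping groups (limma adjusted P = 0.447). The SOCS1 promoter window (chr16:11256155-11256454, minus strand, RefSeq, GRCh38.p14) is shown because it held GAAA repeated after 2 bases, letters bound by interferon regulatory factors, here in capitals.
SOCS1: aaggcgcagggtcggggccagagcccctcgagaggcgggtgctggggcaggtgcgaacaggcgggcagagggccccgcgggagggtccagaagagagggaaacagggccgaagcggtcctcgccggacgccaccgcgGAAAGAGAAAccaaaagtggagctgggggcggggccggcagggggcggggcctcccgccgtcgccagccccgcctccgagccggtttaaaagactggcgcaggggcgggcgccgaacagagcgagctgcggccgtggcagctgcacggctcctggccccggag
This single match begins 113 bases before the start site, and 3.57% of all windows hold this motif on either strand. No window of another of these genes held it.

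SOCS3 (ENSG00000184557, chr17:78356778-78360077, minus strand) had the largest increase of the 9 genes. Its level was 7.98 and 7.77 FPKM in control and 60.4 and 58.8 FPKM with GNE-987, from 502, 470, 1381 and 1419 reads. Replicates of each group were close together and the groups lay far apart. The log2 fold change was 2.91 (SE 0.0473, limma adjusted P = 9.97e-05). SOCS3 rose more than STAT3: the ratio of SOCS3 to STAT3 within a library went from 0.379 and 0.314 to 0.724 and 0.719, a 2.08-fold change. The divergent transcript SOCS3-DT, 298 bases before SOCS3, reached at most 0.668 FPKM and was not tested.

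SOCS2 (ENSG00000120833, chr12:93569814-93583487, plus strand) was the inhibitor that fell. It measured 18.6 and 18.1 FPKM in control and 8.10 and 7.93 FPKM in treated libraries, from 2904, 2712, 459 and 474 reads. The groups did not overlap, and the log2 fold change was -1.19 (SE 0.0536, limma adjusted P = 0.000302). SOCS2 and JAK2 had close log2 fold changes, with a ratio between them of 4.0 and 3.88 in control and 4.14 and 3.89 in treated libraries, where the groups overlapped (two-sided exact permutation p = 1.0). SOCS2-AS1, on the opposite strand, shares 1955 bases with SOCS2 and had overlapping groups between 1.22 and 1.94 FPKM.

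Together the 4 inhibitor genes summed to 51.0 and 46.3 FPKM in control and 174.4 and 173.0 FPKM in treated libraries. Their make-up changed: SOCS2 went from 36.5% and 39.1% of this sum to 4.65% and 4.58%, SOCS3 from 15.6% and 16.8% to 34.7% and 34.0%, and SOCS1 from 10.7% and 9.35% to 18.3% and 16.99%. CISH held 37.2% and 34.8% in control and 42.4% and 44.4% in treated libraries. SOCS2 and CISH had overlapping ranges at the head of the inhibitors in control, whereas with GNE-987 the order was CISH, SOCS3, SOCS1 and SOCS2 with no overlap between neighbours. SOCS4, SOCS5, SOCS6 and SOCS7, the relatives less tied to cytokine feedback, were all tested and none was called, with a median log2 fold change of 0.20, although SOCS7 was called lower with recovered-read scaling and all 4 with GAPDH scaling.

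PIM1 (ENSG00000137193, chr6:37170152-37175428, plus strand), a survival kinase induced by STAT5 and STAT3, had a smaller difference. It measured 123.5 and 119.3 FPKM in control and 81.3 and 79.6 FPKM in treated libraries. Both treated libraries lay below both controls, but the fold change of 1.51 was under the limit for a call (log2 fold change -0.59, SE 0.0408, limma adjusted P = 0.000691). PIM1 was the most abundant of the 9 genes in control and, with STAT5A falling further, its ratio to STAT5A went from 1.09 and 1.04 to 4.74 and 4.81. Its paralogs were not called with the deposited scaling, though both were lower with GAPDH scaling and PIM2 with recovered reads. PIM2 measured 61.6 and 58.4 FPKM in control and 50.6 and 48.2 FPKM in treated libraries, and PIM3 21.4 and 22.3 FPKM in control and 24.98 and 25.92 FPKM in treated libraries.

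In all, 12 ratios between these genes were compared within libraries. The groups did not overlap in 11 of them, and SOCS2 to JAK2 was the exception. Single genes did not overlap for 89.1% of all tested genes, and no share over other gene pairs was computed. For those 11 the two-sided exact permutation test gave p = 0.333 (0.363 after Benjamini-Hochberg adjustment over the 12), the smallest p this design allows. The largest changes were in SOCS1 to STAT5A, which rose 42.0-fold from 0.0478 and 0.0376 to 1.86 and 1.78, and in CISH to STAT5A. Against JAK2, SOCS3 rose 16.98-fold, SOCS1 14.1-fold and CISH 9.73-fold.

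**Figure D3:**
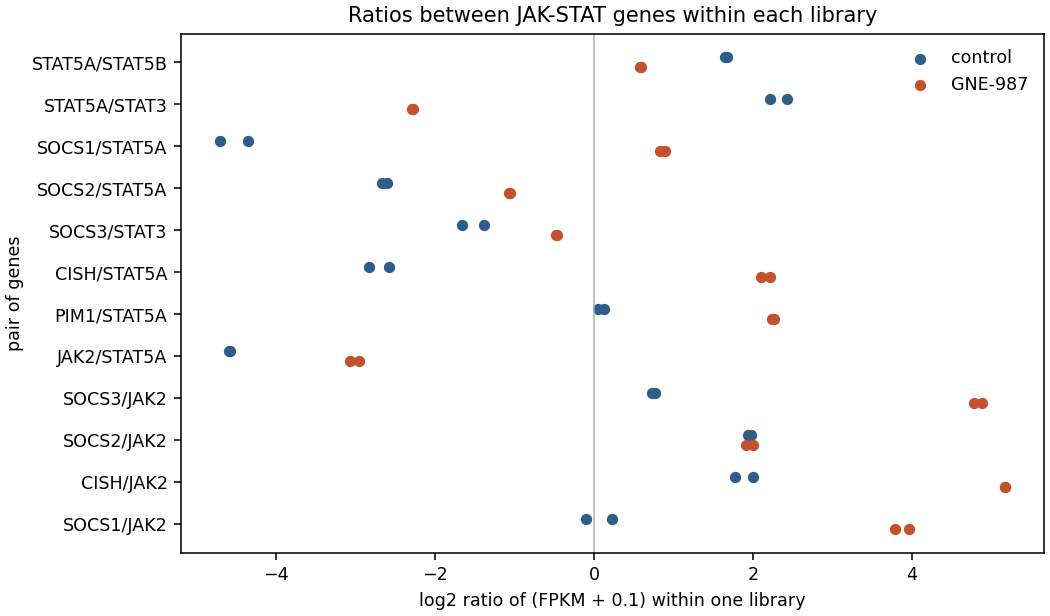
Log2 ratio of FPKM + 0.1 between pairs of JAK-STAT genes within each library, with 2 control (blue) and 2 GNE-987 (red) points per pair. Blue and red points are apart for 11 of the 12 pairs and overlap for SOCS2/JAK2. The ratios STAT5A/STAT3, SOCS1/STAT5A and CISH/STAT5A cross 0 between the groups, and the control points of SOCS1/JAK2 lie on both sides of 0. No share over other gene pairs was computed, and single genes were apart for 89.1% of all tested genes.

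How far the increases go depends on the scaling between libraries. The deposited values were scaled to 23024012, 22120718, 8360488 and 8826052 reads, whereas reads on genes were 19347332, 19139588, 12307815 and 12810936. Scaling to reads on genes therefore lowers every log2 fold change by 0.78 before the pseudocount is added, and by less for low genes after it. Relative to the deposited values the median of all tested genes shifted by 0.11 with median-ratio scaling, -0.42 with quantile normalization, -0.74 with the total of recovered reads and -1.78 with GAPDH. GAPDH itself, a glycolytic enzyme often used as a reference, went from 398.1 and 432.2 to 1501 and 1499 FPKM. Scaled to GAPDH, STAT3 had a log2 fold change of 0.00, CISH of 0.25 and SOCS1 of 0.80, none of them called, while SOCS3 was still called at 1.06. Under the other 4 scalings STAT3, CISH, SOCS1 and SOCS3 were all called higher, and STAT5A, STAT5B, JAK2 and SOCS2 were called lower under all 5. PIM1 was called lower under 3 scalings, at -1.58 with quantile normalization, -1.37 with recovered reads and -2.45 with GAPDH.

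Scaling by 1 factor per library shifts all genes alike, so a gene's distance from the median of the tested genes is kept by construction, apart from the pseudocount, and is no test of stability. Quantile normalization is the scaling that can change this distance. On the log2 scale it moved STAT3 from 1.68 to 1.61 above the median, CISH from 1.93 to 1.95, SOCS1 from 2.46 to 2.71 and SOCS3 from 2.73 to 2.86. For the lower genes the distance went from -2.93 to -3.18 for STAT5A and from -1.86 to -1.72 for STAT5B. For JAK2 it went from -1.355 to -1.192 and for SOCS2 from -1.36 to -1.01. PIM1 moved farthest, from -0.77 to -1.34.

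**Figure D4:**
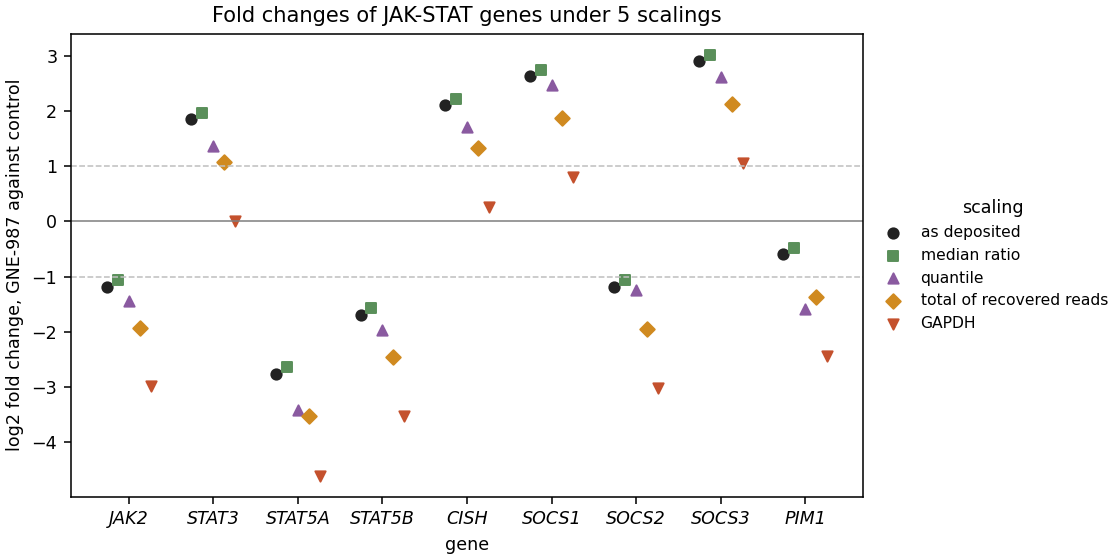
Log2 fold change of each JAK-STAT gene, GNE-987 against control, under 5 scalings between libraries (marker shapes), with dashed lines at 2-fold. All 9 genes are lower with GAPDH than with median-ratio scaling, and STAT3 reaches 0.00 with GAPDH. Quantile normalization moves the genes unequally: from median-ratio scaling PIM1 goes from -0.47 to -1.58 and SOCS2 from -1.07 to -1.25. STAT5A is the lowest and SOCS3 the highest under each scaling.

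The wider pathway was described with 68 further genes in 9 lists, of which 52 passed the filter. Of these, 15 were called higher, 19 lower and 18 were not called, with a median log2 fold change of 0.09 beside 0.17 over all tested genes. The counts were 9 higher and 19 lower with quantile normalization, 8 and 22 with recovered reads and 6 and 37 with GAPDH scaling. With the deposited scaling, 33.6% of all tested genes were called higher and 24.9% lower, and 24.0% and 31.7% of protein-coding genes. Under quantile, recovered-read and GAPDH scaling, 4235, 4181 and 3034 of the 16668 genes were higher and 5464, 6646 and 9734 lower. The counts of each list below are descriptions beside these shares. Among called genes of the lists, ELOB, ELOC, IL6ST, MCL1, BCL3, IRF1 and IRF9 changed sign with GAPDH scaling, and IRF9 also with quantile normalization. Some genes outside the naming rule are named in the next paragraphs, a choice made after their values were seen: IL6R, IL6ST, EPOR, LEPR, IFNAR1, IFNGR2, CSF2RB, FOS, BCL3, BCL2L1, CCND2, CUL5, IRF1, IRF9, ISG15, MX1 and OAS1. STAT2, STAT4 and the SOCS relatives also lie outside it. The rule took called genes averaging 5 FPKM or more, up to 4 per direction and list, and JAK1, JAK3, TYK2, STAT6, PIM2 and PIM3 as paralogs of the 9 genes.

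Receptors that use JAK kinases gave 4 higher and 4 lower calls among 10 tested of 18. IL3RA, the interleukin-3 receptor chain, went from 0.279 and 0.370 to 67.8 and 70.2 FPKM (log2 fold change 7.35, SE 0.132, limma adjusted P = 0.000105). CSF2RB, the partner chain that IL3RA needs to signal, stayed at or under 0.0181 FPKM in every library. The interleukin-6 receptor pair rose as well: IL6R went from 0.0471 and 0.0490 to 2.13 and 2.16 FPKM and IL6ST from 2.80 and 2.78 to 6.28 and 6.18 FPKM, the latter not called with recovered-read scaling and of opposite sign with GAPDH scaling (log2 fold change -0.68). The erythropoietin receptor EPOR fell from 7.43 and 7.61 to 1.09 and 0.736 FPKM, and LEPR, IFNAR1 and IFNGR2 fell by 1.71, 1.56 and 1.23 on the log2 scale.

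Known target genes of STAT3 or STAT5 gave calls in both directions, 5 higher and 6 lower among 12 tested of 14, with 3 higher and 6 lower under quantile or recovered-read scaling and 1 higher and 7 lower under GAPDH scaling. BCL6, a transcriptional repressor, had the widest difference, from 0.475 and 0.472 to 595.0 and 607.8 FPKM (log2 fold change 10.03, SE 0.0463, limma adjusted P = 9.0e-05). JUNB, an AP-1 factor, rose from 22.7 and 19.3 to 93.2 and 96.1 FPKM, and the survival gene MCL1 from 54.0 and 54.4 to 113.3 and 116.7 FPKM. FOS and BCL3 were also called higher, both under 4 FPKM. BCL6 alone was called higher under all 5 scalings. MCL1 and BCL3 were not called under quantile, recovered-read or GAPDH scaling, where MCL1 had log2 fold changes of 0.31, 0.31 and -0.77. JUNB and FOS were not called under GAPDH scaling, at 0.32 and 0.62. BCL2L1, a further survival gene, fell from 27.4 and 24.6 FPKM in control to a mean of 12.01 FPKM in treated libraries, a log2 fold change of -1.11 that fell just short of a call with median-ratio scaling (-0.99). MYC fell from 91.5 and 90.4 to 40.3 and 39.5 FPKM, CCND3 from 56.7 and 54.6 to 25.7 and 25.1 FPKM, CCND1 from 19.6 and 19.8 to 5.37 and 7.01 FPKM, and ID1 from 34.3 and 28.3 to 13.0 and 11.7 FPKM. CCND2 was not called, at 8.56 and 6.30 FPKM in control and 8.31 and 8.66 FPKM in treated libraries. BCL6 is repressed by STAT5 in other blood cells, whereas MYC and the D cyclins are among its activated targets, as background. Whether STAT5 had a part in these changes, or in the rise of its target CISH, was not tested.

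Phosphatases, adaptors and other inhibitors gave 1 higher and 6 lower calls among 11, with a median log2 fold change of -1.06. PTPN6, the SHP-1 phosphatase that silences JAK2 and cytokine receptors, rose from 0.156 and 0.199 to 60.4 and 60.1 FPKM (log2 fold change 7.77, SE 0.111, limma adjusted P = 9.61e-05). PTPRC, the CD45 phosphatase, fell from 20.3 and 23.3 to 3.04 and 3.05 FPKM, and SH2B3, an adaptor that restrains JAK2, from 24.03 and 24.69 to 7.60 and 7.62 FPKM. PTPN11, the SHP-2 phosphatase, and the STAT inhibitor PIAS4 fell by 1.06 and 1.69 on the log2 scale, and PTPN11 was not called with median-ratio scaling (-0.95). The silencers of the pathway did not share a direction.

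The partners that join the SOCS box to ubiquitin transfer also split. The elongins ELOB and ELOC rose, ELOB from 106.9 and 87.8 to 328.2 and 313.0 FPKM and ELOC from 11.4 and 9.72 to 21.7 and 21.2 FPKM. The cullin CUL5 fell from 6.40 and 7.40 to 2.998 and 2.924 FPKM and its RING partner RNF7 from 8.96 and 9.18 to 4.18 and 3.56 FPKM. All 4 genes of this list were called, 2 in each direction, but neither elongin was called higher with quantile, recovered-read or GAPDH scaling, and with GAPDH both changed sign (log2 fold changes -0.13 and -0.82).

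Interferon genes gave 3 higher calls and no lower call among 4 tested of 8. IRF7, an interferon regulatory factor, rose from 1.26 and 1.57 to 27.2 and 31.8 FPKM (log2 fold change 4.30, SE 0.149, limma adjusted P = 0.000201). IRF1 and IRF9 were called higher at levels of at most 2.02 FPKM, and only IRF7 was called higher with quantile, recovered-read and GAPDH scaling. ISG15 had overlapping groups between 10.4 and 15.0 FPKM, and MX1 and OAS1 were listed at or near 0 in all libraries.

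**Figure D5:**
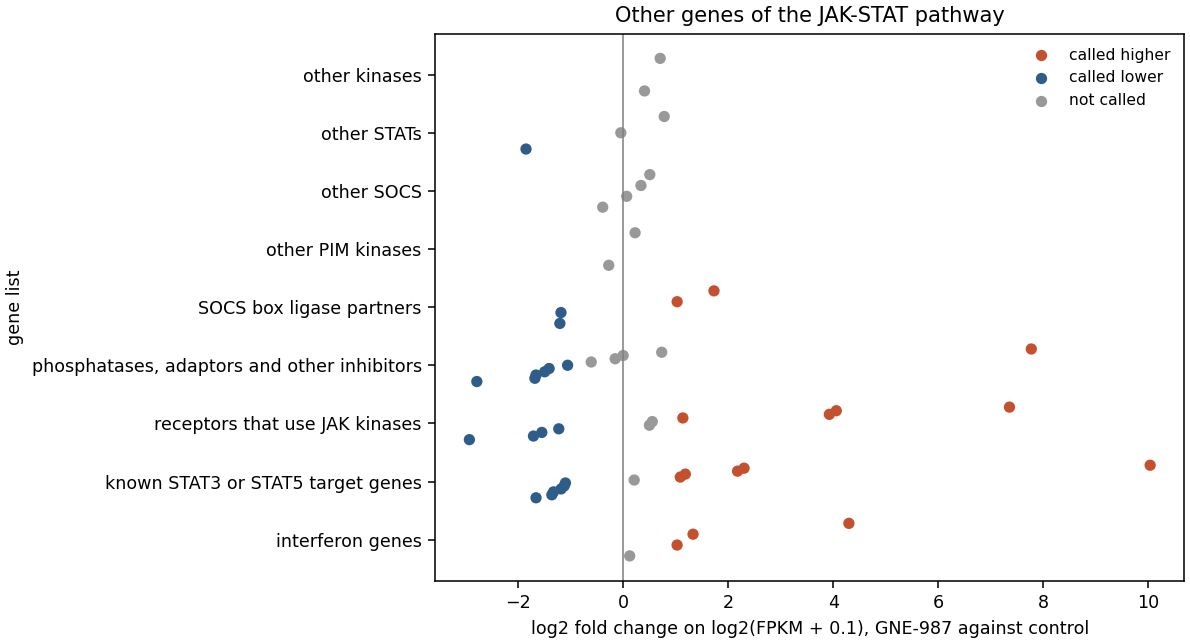
Log2 fold change of the 52 tested pathway genes on log2(FPKM + 0.1), GNE-987 against control, by list, each point a gene and its colour the call. Receptors and target genes spread to both sides of 0, with BCL6 farthest to the right at 10.03, and none of the other JAK kinases, SOCS or PIM genes was called with the deposited scaling drawn here, whereas GAPDH scaling called all of them lower.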

How the data were processed

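RNA-seq of 2 control and 2 GNE-987-treated libraries was deposited by the authors as FPKM values per gene. Reads were aligned with HISAT2 2.0.5 to hg38 per the submitters' processing notes, and the authors called differential expression with DESeq2. The counting program and annotation are not given in the sources used here. Groups came from the labels, dose and time from the study's text. The deposited values are no counts, so log2(FPKM + 0.1) was tested with limma 3.58.1 in R 4.3.3 (intensity trend, no replicate block, Benjamini-Hochberg adjustment over 16668 genes, those averaging 0.5 FPKM or more). Fold changes on this scale understate changes of low genes. Calls needed P under 0.05 before adjustment together with a fold change above 2 or below 0.5. Ratios were compared with the exact permutation test in scipy 1.17.1.

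Whole reads were recovered with a tolerance of 0.01, at GENCODE release 44 exon lengths for 53.4% of genes above 0 and at another length for the rest except 68 genes. Identifiers matched that release for 99.1% of genes. The fit was tested on simulated data.

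The genes, lists, pairs and markers were chosen with earlier results of these data known. By rule, genes named from a list were called and averaged at least 5 FPKM, at most 4 per direction, besides family members, overlapping and nearest genes. Others, listed in the report, were named after their values were seen. Motifs were searched in RefSeq windows. Some genes counted in the lists are not reported here. Alternatives were other pseudocounts, filters, scalings and thresholds, limma-voom on recovered reads, a replicate block, and leaving out each library. Same-numbered libraries did not deviate together (correlation 0.00537 over genes).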

Additional observations from a re-analysis of the deposited data

How the results depend on the processing

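Under scaling to GAPDH, 3034 genes of the whole table were higher and 9734 lower, 1 of the 9 JAK-STAT genes was higher, and 6 further pathway genes were higher and 37 lower. Without a filter on low values 8757 genes were higher. With the total of recovered reads 6646 genes were lower and 8 pathway genes higher, with limma-voom on recovered reads 6733 and 8, and 9 pathway genes were higher with quantile normalization and with a test against a 2-fold change. A pseudocount of 1, which compresses the values of low genes, gave log2 ratio differences of 5.13 for SOCS1/STAT5A, 2.11 for PIM1/STAT5A, 1.78 for JAK2/STAT5A, 3.69 for SOCS3/JAK2, -0.19 for SOCS2/JAK2, 2.96 for CISH/JAK2 and 3.35 for SOCS1/JAK2. The replicate number as a block gave 9853 called genes, 5667 higher and 4186 lower, with 4 of the 9 genes in each direction, and changed no call of the 9 genes; the numbers are not known to pair the libraries. Leaving out each library in turn, the 9 genes kept 4 calls in each direction, 31 to 33 pathway genes were called, and the whole table held 9006 to 9172 calls, the lone library being assumed to vary like the other group. Across these fits the SOCS2/JAK2 difference ran from -0.05 to 0.04, and no other ratio changed sign. The cause of these shifts was not tested beyond the settings named. With 2 libraries per group and as few as 101 reads for JAK2, precision is limited, and no group was large enough for a test of outlying libraries.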
